A study of Mus musculus with 6 samples.

Results

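Endothelin, adrenomedullin and apelin are secreted peptides that act on G protein-coupled receptors of vessels, endocardium, neural crest and heart muscle, and 10 genes of these systems were examined in the embryonic mouse heart. They comprise the ligand genes Edn1, Adm and Apln, the receptor genes Ednra, Ednrb, Calcrl and Aplnr, the receptor partner genes Ramp2 and Ramp3, and Ece1, whose product cuts big endothelin to its active form. Members were chosen by name, through the RefSeq identifiers of the entries, and all 10 were found among the 23290 entries of the authors' deposited table. Each had a single entry and each was tested by the authors. The study asked which genes differ in the heart when Casz1, a zinc finger transcription factor gene, is mutated. RNA came from 3 mutant hearts and 3 control hearts at E10.5, each from a separate embryo of C57BL/6 background. Mutant embryos were Nkx2-5Cre/+,Casz1f/f, with floxed Casz1 on both chromosomes and Cre recombinase at 1 Nkx2-5 allele. Control embryos were Nkx2-5+/+,Casz1f/+, so they carried 1 floxed Casz1 allele and no Cre. Cre acts where Nkx2-5 is active, and cells outside that domain keep Casz1. The presence of Cre, the altered Nkx2-5 allele and the loss of Casz1 differ together between the genotypes, and their parts cannot be told apart.

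Endothelin 1 signals through EDNRA in neural crest and is needed for the pharyngeal arches and the outflow vessels, while EDNRB is also found on endothelium. Adrenomedullin acts on CALCRL, which becomes an adrenomedullin receptor when paired with RAMP2 or RAMP3, and its loss in mice gives embryonic oedema and death. The apelin receptor, APLNR, is made by early vessels and cardiac progenitors and answers to apelin and to the peptide encoded by Apela.

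Expression was given as FPKM, a measure of fragments that corrects for how long a transcript is and how deeply a library was sequenced, with 1 value per genotype that pools its 3 hearts. FPKM values, fold changes (mutant over control), p and q were all taken from the authors' deposited table, q being the p adjusted over the 15387 tested entries. Each fold change carries the SE that the authors' test statistic implies, on the log2 scale. Values of single hearts and the depth of each library are unknown here, so overlap between hearts could not be examined. Casz1 itself read 4.68 FPKM in mutant hearts and 6.61 FPKM in control hearts (log2 -0.50, SE 0.306, q = 1.00), and the labels do not say which exons were floxed. Nkx2-5 read 82.9 FPKM in mutant hearts and 143.0 FPKM in control hearts (log2 -0.79, SE 0.295, q = 0.536). The heart muscle marker Tnnt2 was abundant in both genotypes, at 1974 FPKM in each. Other heart muscle markers, most of them below 0 on the log2 scale, are given further on. The sex genes were unequal: Xist stood at 0.0238 FPKM in mutant hearts and at 10.1 FPKM in control hearts. The Y-linked genes Ddx3y, Eif2s3y, Kdm5d and Uty read 10.1, 33.6, 3.87 and 2.93 FPKM in mutant hearts, against 6.50, 22.9, 2.95 and 2.25 FPKM in control hearts. The mix of sexes thus differed between the pooled genotypes, and its part in any difference cannot be told apart from that of genotype.

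None of the 10 genes passed the authors' Cuffdiff test at q under 0.05, a threshold that 0.422% of all tested entries passed, 0.305% with a higher and 0.117% with a lower value in mutant hearts. Aplnr, the 3 ligand genes and Ramp3 had the highest log2 fold changes, from 0.47 for Edn1 to 0.97 for Aplnr, with Ramp3 at 0.57. Ednra, Ednrb, Calcrl, Ramp2 and Ece1, the genes of highest level, lay between -0.25 and 0.09. At an unadjusted p under 0.05, Aplnr and Adm, 2 of the 10 members, were higher in mutant hearts and 0 were lower. Of all tested entries 3.17% reached that p, 1.99% with a higher and 1.18% with a lower value. The median log2 fold change of the 10 genes was 0.28, against -0.02 over all tested entries, with 7 members above 0 and 3 below. The smallest change called anywhere in the table was 2.29-fold, and the 95% interval of a member reached a median of 0.64 to each side on the log2 scale. Differences of the size seen here in the 10 genes were called for no entry of the table, so they were below what this design detected.

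**Figure D1:**
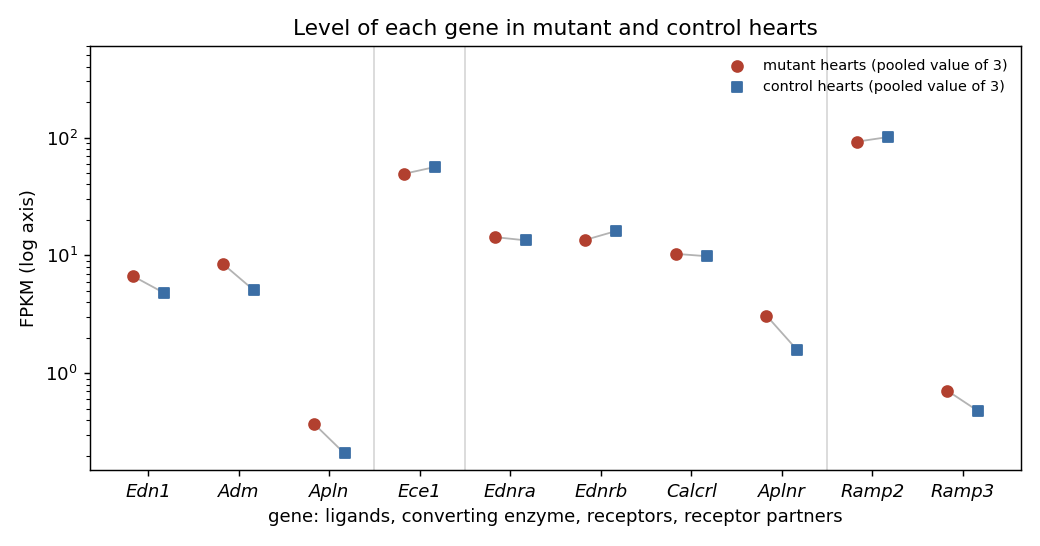
FPKM on a log axis for the 10 genes, grouped by vertical lines into ligands, converting enzyme, receptors and receptor partners; circles are mutant hearts and squares control hearts, each 1 pooled value of 3 hearts without error. Ramp2 and Ece1 lie at the top and Apln and Ramp3 under 1 FPKM in both genotypes, and the 3 ligands, Aplnr and Ramp3 slope down towards the control value.

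The upstream sequences of Adm and Apln are shown because these were the ligands with the highest log2 fold changes and because the RefSeq start sites lay within 12 bases of the starts of the deposited entries. The stretches are the 150 bases before the start site, from RefSeq on GRCm38.p6, written 5′ to 3′ on the gene's own strand. Adm lies on chr7:110627507-110627656 on the plus strand and Apln on chrX:48034854-48035003 on the minus strand. Capitals mark the core of the hypoxia response element, ACGTG or GCGTG on either strand, since the adrenomedullin, apelin and endothelin 1 genes are known to respond to low oxygen.
Adm: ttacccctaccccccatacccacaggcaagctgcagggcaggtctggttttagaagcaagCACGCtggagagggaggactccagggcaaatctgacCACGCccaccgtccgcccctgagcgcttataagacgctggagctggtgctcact
Apln: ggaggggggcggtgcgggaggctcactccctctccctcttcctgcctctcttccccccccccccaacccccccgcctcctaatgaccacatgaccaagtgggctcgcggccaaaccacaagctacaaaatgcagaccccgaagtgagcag
The Adm stretch held 2 matches, both on the opposite strand, and the Apln stretch held 0. A match is a description of letters and not of a bound site. Over windows of 250 bases before to 50 bases after a start, 43.8% of 32851 mouse promoter windows held at least 1 such core. A motif of the NKX2-5 type, TNAAGTG on either strand, was in 11.5% of these windows. Of the 11 windows of the 8 members with such a window, 1 held it, that of Ednra. The hypoxia core was in at least 1 window of Adm, Calcrl, Ece1, Edn1, Ednrb and Ramp3, and not in those of Apln and Ednra. This counts genes, whereas the 43.8% is a share of windows. The Ece1 window whose start lay 58556 bases inside the deposited entry held 0. Another Ece1 start lay 51321 bases inside, and those of Ednrb and Ramp3 lay 775 and 8385 bases inside. For Edn1 the RefSeq start lay 206 bases inside the deposited entry, so its window overlaps transcribed sequence of the authors' model and is not shown.

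Edn1, the ligand of both endothelin receptors, read 6.69 FPKM in mutant hearts and 4.83 FPKM in control hearts. The mutant value was 1.39-fold the control value (log2 0.47, SE 0.335, 95% interval -0.19 to 1.13, p = 0.161, q = 1.00 in the authors' deposited table). The entry spans chromosome 13 from 42301270 to 42307989 in mm10 and overlaps 0 other RefSeq genes. In the embryo Edn1 is made by endothelium and by the epithelium of the pharyngeal arches. Epithelial markers stood higher in the same mutant hearts, as given with the marker lists further on, and their part in the Edn1 value was not tested.

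Ece1, the endothelin converting enzyme gene, was the second most abundant of the 10 genes. It read 49.3 FPKM in mutant hearts and 56.3 FPKM in control hearts (log2 -0.19, SE 0.302, q = 1.00). Ece1 transcript exceeded Edn1 transcript 7.38-fold in mutant hearts and 11.7-fold in control hearts on this length-scaled measure. Ece1 lies on chromosome 4 from 137862237 to 137965229, and 10.8 Mb separate it from Casz1. It overlaps 2 long noncoding RNA genes.

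The endothelin receptor genes stood at like levels, and their order was not the same in the 2 genotypes. Ednra, the receptor gene of neural crest and muscle, read 14.3 FPKM in mutant hearts and 13.4 FPKM in control hearts (log2 0.09, SE 0.284, 95% interval -0.47 to 0.65). Ednrb, the second endothelin receptor gene, read 13.5 FPKM in mutant hearts and 16.1 FPKM in control hearts (log2 -0.25, SE 0.322, 95% interval -0.88 to 0.38). The ratio of Ednra to Ednrb was therefore 1.06 in mutant hearts and 0.833 in control hearts. Neither gene was called (q = 1.00 for each), and with no value per heart the change of order cannot be set against a spread. Ednra lies on chromosome 8 from 77663029 to 77724452 and Ednrb on chromosome 14 from 103814615 to 103844476. Both overlap long noncoding RNA genes, 3 for Ednra and 1 for Ednrb, and no source used here says whether the counting used strand.

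**Figure D2:**
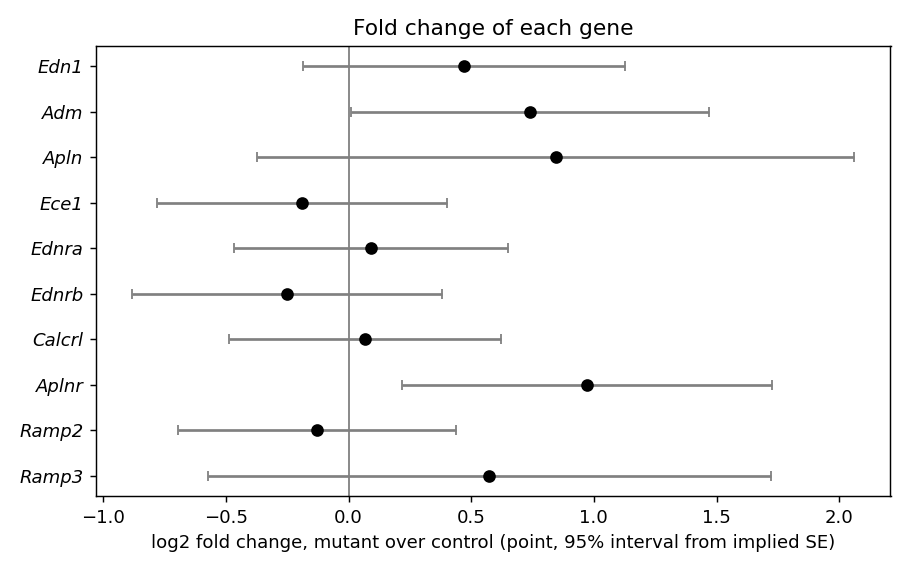
The log2 fold change, mutant over control, of the 10 genes with 95% intervals from the implied SE, by role from ligands at the top to receptor partners at the bottom. The intervals of Aplnr (0.22 to 1.73) and Adm (0.01 to 1.47) lie above 0, the other 8 include 0, and no gene was called at q under 0.05.

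Adm, the adrenomedullin gene, read 8.42 FPKM in mutant hearts and 5.04 FPKM in control hearts. This 1.67-fold difference had an unadjusted p of 0.0471 in the authors' deposited table and did not pass the adjusted test (log2 0.74, SE 0.372, 95% interval 0.01 to 1.47, q = 1.00). The short entry, on chromosome 7 from 110627669 to 110629819, overlaps the noncoding RNA gene Gm28863, and reads of the pair may not be separable.

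Calcrl and Ramp2 were higher in level than Adm and had log2 fold changes of 0.07 and -0.13, while Ramp3 was lower in level than Adm. Calcrl, the receptor gene, read 10.3 FPKM in mutant hearts and 9.84 FPKM in control hearts (log2 0.07, SE 0.283, q = 1.00). Calcrl was 1.22 times Adm in mutant hearts and 1.95 times Adm in control hearts. Ramp2, whose protein brings CALCRL to the membrane as an adrenomedullin receptor, was the most abundant of the 10 genes, at 92.4 FPKM in mutant hearts and 101 FPKM in control hearts (log2 -0.13, SE 0.288, q = 1.00). Ramp3, its relative, was listed at 0.709 FPKM in mutant hearts and 0.476 FPKM in control hearts (log2 0.57, SE 0.585, q = 1.00). Ramp2 transcript was thus 130-fold more abundant than Ramp3 transcript in mutant hearts and 212-fold more abundant in control hearts. Ramp2 lies on chromosome 11 from 101246334 to 101248250 and Ramp3 on the same chromosome from 6650148 to 6677475, where it overlaps 1 pseudogene.

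Ramp1, the third gene of the family and no member here, gives CALCRL its preference for calcitonin gene-related peptide. It read 17.7 FPKM in mutant hearts and 9.44 FPKM in control hearts (log2 0.91, SE 0.450, p = 0.0440, q = 1.00 in the authors' deposited table). Of the summed FPKM of the 3 RAMP genes, Ramp1 made up 16.0% in mutant hearts and 8.51% in control hearts. Ramp2 made up 83.4% in mutant hearts and 91.1% in control hearts, while the sum itself was 111 FPKM in each genotype. These shares were chosen after the values had been seen and carry no test. Calca, which encodes calcitonin and calcitonin gene-related peptide and was also named after its value was seen, read 4.75 FPKM in mutant hearts and 2.54 FPKM in control hearts (log2 0.90, SE 0.584, p = 0.124 in the authors' deposited table).

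**Figure D3:**
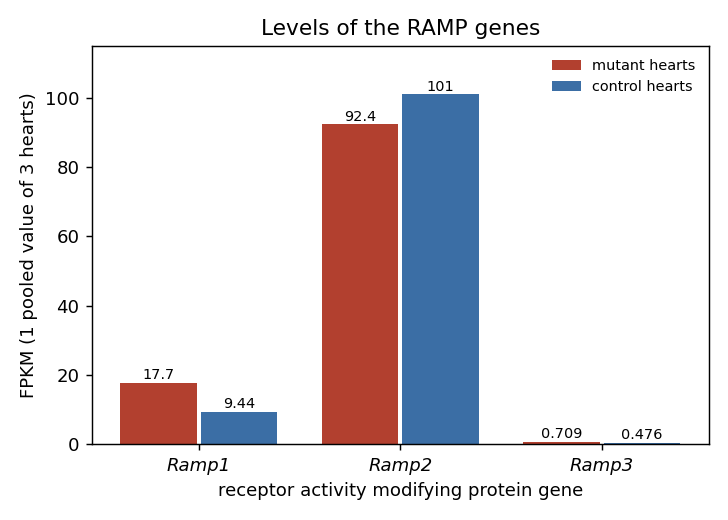
FPKM of Ramp1, Ramp2 and Ramp3 on a linear axis from 0, with mutant hearts left and control hearts right in each pair, each bar 1 pooled value of 3 hearts without error. Ramp2 dominates in both genotypes, and Ramp1 reads 17.7 FPKM in mutant hearts against 9.44 FPKM in control hearts.

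Apln, the apelin gene, was the least abundant of the 10. It was listed at 0.374 FPKM in mutant hearts and 0.208 FPKM in control hearts (log2 0.84, SE 0.621, 95% interval -0.37 to 2.06, p = 0.174, q = 1.00 in the authors' deposited table). The difference in level is small, with both values under 1 FPKM, and an added value pulls such a ratio towards 0. The log2 fold change was 0.62 with 0.1 FPKM added to each value and 0.19 with 1 FPKM added. Apln is the only X-linked member, from 48025146 to 48034852, and the genotypes differed in Xist as given above. Over 417 tested X-linked entries with at least 1 FPKM in either genotype, Xist left out, the median log2 fold change was -0.02, and over 11727 autosomal entries it was -0.02 as well.

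Aplnr, the apelin receptor gene, had the highest fold change and the lowest p of the 10 genes. It read 3.09 FPKM in mutant hearts and 1.57 FPKM in control hearts, a 1.96-fold difference in the authors' deposited table (log2 0.97, SE 0.385, 95% interval 0.22 to 1.73, p = 0.0114, q = 0.716). Aplnr lies on chromosome 2 from 85136360 to 85139923, overlaps 0 other RefSeq genes, and is 0.711 Mb from Calcrl, whose log2 fold change was 0.07. Aplnr transcript exceeded Apln transcript in both genotypes, 8.27-fold in mutant hearts and 7.56-fold in control hearts. In these bulk samples a larger share of Aplnr-expressing cells and more transcript per cell cannot be told apart.

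Set among all tested entries of like level, 4 members lay outside the range that holds the middle 90% of fold changes, which by construction leaves out 10% of entries. Between 1 and 10 FPKM that range ran from -0.44 to 0.45 on the log2 scale over 5671 entries, and Edn1, Adm and Aplnr, the 3 members at that level, all lay above it. Edn1 did so by a small margin. Between 10 and 200 FPKM the range ran from -0.25 to 0.19 over 5910 entries, and of the 5 members there Ednrb lay just below it. Apln and Ramp3 lay within the wider range of -0.89 to 1.26 that held between 0.1 and 1 FPKM. The position of a member among other genes is not a test over hearts.

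**Figure D4:**
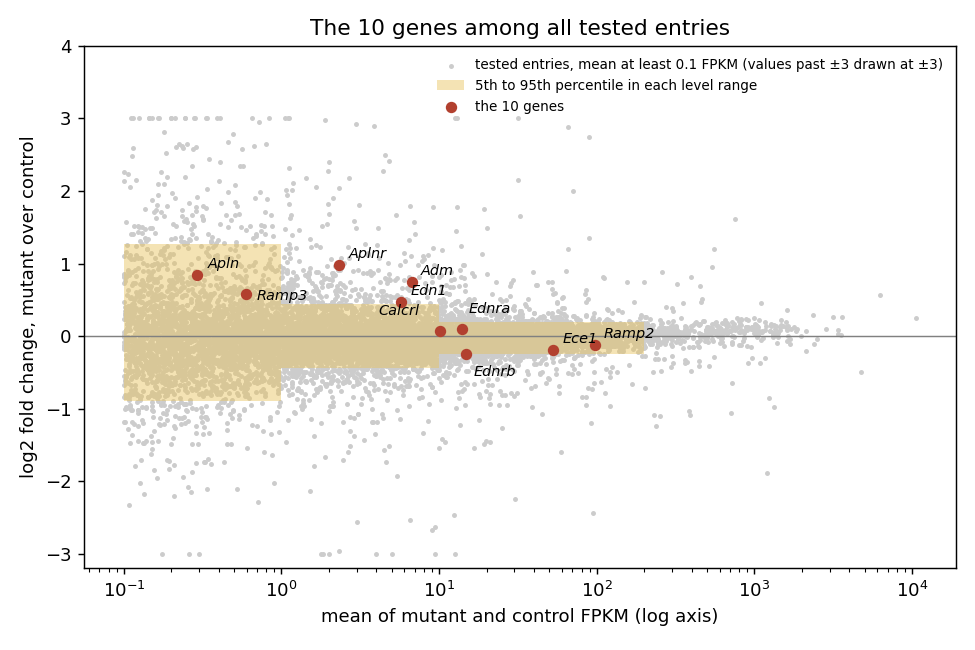
Log2 fold change, mutant over control, against the mean FPKM of the 2 genotypes on a log axis, for tested entries in grey and the 10 genes in red; shaded boxes span the 5th to 95th percentile in each of 3 level ranges. Aplnr, Adm and Edn1 lie above the box for 1 to 10 FPKM (-0.44 to 0.45), and Ednrb lies at the lower edge of the next box.

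The level order of the 10 genes was nearly the same in both genotypes. Ramp2 stood first and Ece1 second, followed by Ednra, Ednrb, Calcrl, Adm, Edn1, Aplnr, Ramp3 and Apln in mutant hearts. Control hearts differed from this order only in that Ednrb preceded Ednra. Summed FPKM of the 3 ligands was 15.5 in mutant hearts and 10.1 in control hearts. The 4 receptor genes summed to 41.2 in mutant hearts and 40.9 in control hearts. Ednra, Ednrb and Calcrl made up most of the receptor sum, and Aplnr read 3.09 FPKM in mutant hearts and 1.57 FPKM in control hearts. These sums carry no error, and no ligand or receptor gene was called. The spread between hearts is unknown, so neighbours in the order cannot be said to differ.

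None of the other 10 tested genes of the endothelin pathway passed at q under 0.05, and 1 had an unadjusted p under 0.05. This was Edn3, the ligand that acts on EDNRB in neural crest, at 0.478 FPKM in mutant hearts and 0.158 FPKM in control hearts (log2 1.60, SE 0.649, p = 0.0138, q = 0.796 in the authors' deposited table). Furin, a protease that cleaves the endothelin precursor, read 34.5 FPKM in mutant hearts and 33.8 FPKM in control hearts. Gna11, a G protein that carries the signal of EDNRA, read 23.8 FPKM in mutant hearts and 25.0 FPKM in control hearts. The median of this list was 0.05, with 7 genes above 0 and 3 below.

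Of 8 genes known to respond to endothelin 1 in the arches or to act beside it in the outflow tract, 0 passed at q under 0.05. At an unadjusted p under 0.05, 3 had higher values in mutant hearts, against 1.99% of all tested entries. The homeobox genes Dlx5 and Dlx6, targets of endothelin signalling in the lower jaw, were listed at 1.16 and 0.600 FPKM in mutant hearts, against 0.294 and 0.0664 FPKM in control hearts (log2 1.98, p = 0.0112 and log2 3.18, p = 0.00403 in the authors' deposited table). Dlx3 was listed at 0.293 FPKM in mutant hearts and 0.0844 FPKM in control hearts (log2 1.80, p = 0.0210 in the authors' deposited table). Their q-values were 0.713, 0.351 and 0.996, and their SE on the log2 scale were 0.782, 1.10 and 0.779. The more abundant Hand2 and Hand1, factors of arches and ventricles, read 78.5 and 35.3 FPKM in mutant hearts, against 78.2 and 37.5 FPKM in control hearts. The median log2 fold change of the list was 0.59. Whether these values reflect endothelin signalling or the share of arch tissue in the samples was not tested.

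The other adrenomedullin genes went both ways. None of 8 tested genes passed at q under 0.05, with 1 at an unadjusted p under 0.05 in each direction, Ramp1 above and Gpr182. Gpr182, an endothelial receptor once listed as an adrenomedullin receptor and now counted among scavengers of chemokines, read 14.6 FPKM in mutant hearts and 24.8 FPKM in control hearts (log2 -0.76, SE 0.305, p = 0.0124, q = 0.749 in the authors' deposited table). Pam, whose enzyme adds the terminal amide that adrenomedullin needs, read 130 FPKM in mutant hearts and 206 FPKM in control hearts (log2 -0.66, SE 0.347, p = 0.0561 in the authors' deposited table). Ackr3, which removes adrenomedullin from the surface of lymphatic cells, read 21.3 FPKM in mutant hearts and 21.0 FPKM in control hearts. Calcb was marked as too low for a test. The list median was 0.03.

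Few other apelin genes could be tested. Apela had no entry under that symbol. The 4 tested genes of receptor signalling lay between -0.18 and -0.01 on the log2 scale and none was called, with 0 at an unadjusted p under 0.05. Gnai2, an inhibitory G protein, read 158 FPKM in mutant hearts and 179 FPKM in control hearts, and the arrestin gene Arrb1 read 12.9 FPKM in mutant hearts and 13.6 FPKM in control hearts.

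Genes of the response to low oxygen, which Adm, Apln and Edn1 share as a known inducer, had log2 fold changes near 0. Of 15 such genes 0 passed at q under 0.05 and 0 had an unadjusted p under 0.05, and their log2 fold changes ran from -0.16 to 0.26 with a median of 0.06. Ldha read 1128 FPKM in mutant hearts and 1079 FPKM in control hearts, and Pgk1 read 585 FPKM in mutant hearts and 563 FPKM in control hearts. The part of low oxygen in the values of Adm, Apln and Edn1 was not tested.

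Apart from Cldn5, Sox17 (log2 0.49) and Robo4 (log2 0.16), endothelial markers, the usual company of Calcrl, Ramp2, Ednrb and Aplnr, lay below 0. Of 15 such genes 0 passed at q under 0.05, 12 lay below 0, the median was -0.16, and their FPKM summed to 374 in mutant hearts and 415 in control hearts, with 0 genes listed at 0. Plvap read 74.4 FPKM in mutant hearts and 85.7 FPKM in control hearts, and Eng read 51.0 FPKM in mutant hearts and 55.9 FPKM in control hearts. The tight junction gene Cldn5 was the 1 marker at an unadjusted p under 0.05, at 4.01 FPKM in mutant hearts and 2.12 FPKM in control hearts (log2 0.92, p = 0.0414, q = 1.00 in the authors' deposited table). Relative to the median of these markers, a scale chosen after the values had been seen, the log2 fold change was 1.13 for Aplnr and 0.89 for Adm, and that of Ramp2 turned to 0.03. Of 8 endocardial and valve markers 0 passed, 0 had an unadjusted p under 0.05 and the median was -0.11, with Hapln1 at 61.5 FPKM in mutant hearts and 64.7 FPKM in control hearts and Cgnl1 at 35.8 FPKM in mutant hearts and 46.8 FPKM in control hearts.

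Several foregut and epithelial markers and 1 smooth muscle marker were called higher in the mutant hearts. All 5 calls among the 8 foregut and epithelial markers were higher there in the authors' deposited table, against 0.305% of all tested entries. This list and that of smooth muscle were chosen with earlier results of these data known, so such shares describe and do not test. These were Epcam, Cdh1, Shh, Foxa1 and Cldn6. The whole list summed to 82.8 FPKM in mutant hearts and 42.6 FPKM in control hearts with 0 genes listed at 0. Most of this came from Krt18, which was not called, at 65.2 FPKM in mutant hearts and 39.0 FPKM in control hearts. Its other 3 genes, Foxa2, Nkx2-1 and Krt18, had log2 fold changes of 1.83, 2.62 and 0.74 and unadjusted p of 0.00995, 0.00442 and 0.0109. Among smooth muscle and pericyte markers 6 of 7 tested lay above 0, with a median of 1.12. Of these 1 was called higher, against 0.305% of all tested entries. This was Actg2, at 7.72 FPKM in mutant hearts against 1.37 FPKM in control hearts. Tagln, Myh11 and Rgs5, at log2 fold changes of 1.20, 1.52 and 1.12, did not pass. Their unadjusted p in the authors' deposited Cuffdiff test were 0.00526, 0.00346 and 0.00160. Cnn1 stood at 96.0 FPKM in mutant hearts and 132 FPKM in control hearts. The 7 tested genes of that list summed to 899 FPKM in mutant hearts and 486 FPKM in control hearts. Most of this came from Tagln, at 767 FPKM in mutant hearts and 333 FPKM in control hearts. Acta2, listed at 867 FPKM in control hearts, was marked as too deep for a test and is not in the sum.

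Neural crest and pharyngeal mesenchyme markers, from tissue that bears EDNRA, held 0 calls among 6 tested genes. At an unadjusted p under 0.05, reached by 3.17% of all tested entries, stood 3 of them, Tfap2a, Tfap2b and Prrx1. Their log2 fold changes were 1.50, 2.51 and 1.08. Tfap2a and Tfap2b were listed at 0.679 and 0.134 FPKM in mutant hearts, against 0.240 and 0.0235 FPKM in control hearts. Sox10, of the same list, was listed at 0.331 FPKM in mutant hearts and 0.344 FPKM in control hearts (log2 -0.05). The list summed to 79.4 FPKM in mutant hearts and 70.3 FPKM in control hearts, most of it from Prrx2, at 63.7 FPKM in mutant hearts and 58.4 FPKM in control hearts, and from Msx1, at 11.4 FPKM in mutant hearts and 9.77 FPKM in control hearts. Ednra itself stood at a log2 fold change of 0.09. The part of these tissues in the values of Edn1, Adm, Apln and Aplnr was not tested.

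**Figure D5:**
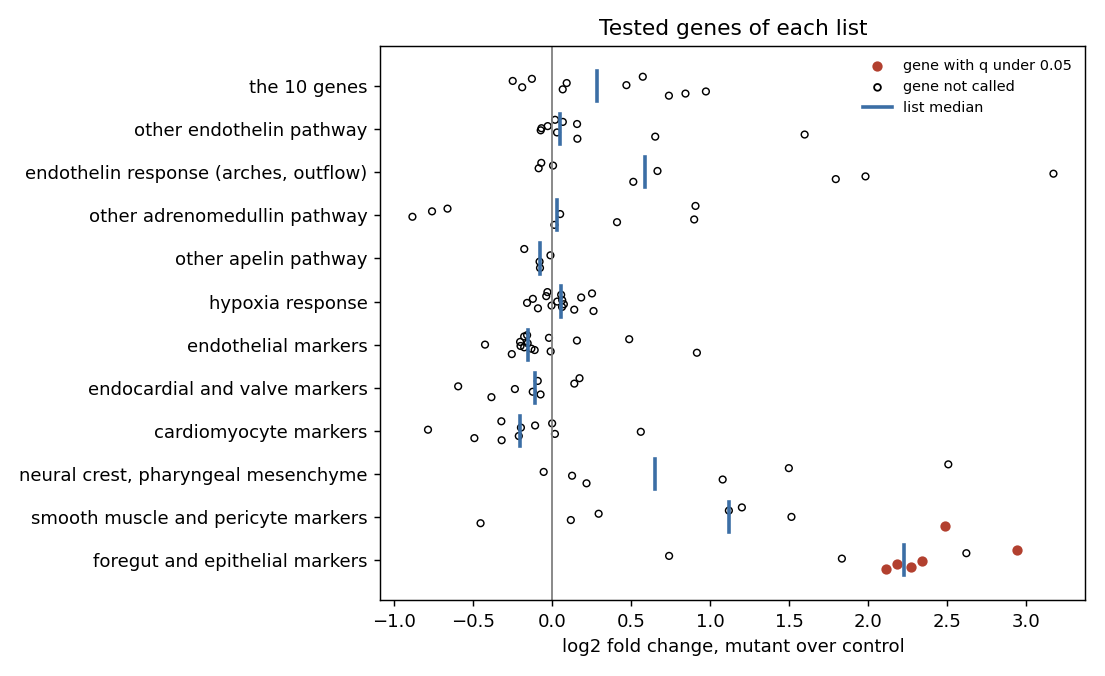
Log2 fold change, mutant over control, of the tested genes of 12 lists, each point 1 gene, filled where q was under 0.05, with a bar at the list median. The 10 genes have a median of 0.28 and no filled point, endothelial markers have a median of -0.16, and the filled points belong to foregut and epithelial markers (5) and smooth muscle and pericyte markers (1).

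Other markers of the heart held no calls. Of 10 cardiomyocyte markers 8 lay below 0 and 2 above, and the median was -0.21. The 1 at an unadjusted p under 0.05 was Nkx2-5, as above. Myl7, the atrial light chain gene, read 7496 FPKM in mutant hearts and 5080 FPKM in control hearts, and Myl2, the ventricular one, read 3942 FPKM in mutant hearts and 5549 FPKM in control hearts. Of 6 epicardial markers 0 had an unadjusted p under 0.05 and the median was -0.09, with Upk3b at 55.0 FPKM in mutant hearts and 59.6 FPKM in control hearts and Tcf21 at 30.0 FPKM in mutant hearts and 31.1 FPKM in control hearts. Of 5 tested blood markers 1 had an unadjusted p under 0.05, the platelet gene Pf4, at 28.8 FPKM in mutant hearts and 60.5 FPKM in control hearts (log2 -1.07, p = 0.00131, q = 0.174 in the authors' deposited table). The red cell gene Alas2, which starts haem synthesis, had a log2 fold change of 0.16.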

How the data were processed

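Hearts of 3 mutant and 3 control embryos were sequenced. Per the submitters' processing notes, the build was mm10 and the tools were Cuffdiff, Cufflinks 2.1.1, Bowtie2 2.1.0.0, TopHat2 2.0.8, FastQC 0.10.1 and SAMtools 0.1.19.0. FPKM values were computed by the authors with Cuffdiff as 1 pooled value per genotype, per the file headers. The log2 fold change, test statistic, p-value and q-value of each entry were deposited by the authors. Library scaling and dispersion settings are not given in the sources used here, and depth per library is unknown. Entries too low for a test (7742) or marked as failed or too deep (161) were left out.

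Entries were named through RefSeq identifiers (99.3% named), and start coordinates were counted from 1. The test statistic runs opposite in sign to the fold change, so FPKM values gave the direction. Deposited p and q followed from the test statistic and a Benjamini-Hochberg adjustment (largest difference in q 1.87e-05), so the SE was taken as the fold change over the statistic, and 95% intervals are normal ones. Fold changes have no pseudocount unless stated. The members and all gene lists were chosen with earlier results of these data known, and lists are described, not tested. Named genes are all members, the sex genes, Casz1 and Nkx2-5. Of each list, genes with q or unadjusted p under 0.05 and the 2 tested genes of highest mean FPKM are also named. Calca, Tnnt2, Sox17, Robo4, Sox10 and the genes given as untested or without an entry were named after their values were seen. Some list genes are not reported here. Steps were tested on simulated data. Python 3.11.15, numpy 2.4.6, pandas 2.3.3, scipy 1.17.1 and matplotlib 3.10.9 were used. Alternatives covered thresholds, filters on low FPKM, pseudocounts and scaling.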

Additional observations from a re-analysis of the deposited data

How the results depend on the processing

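The count of members called was 0 at q under 0.05, 0 at q under 0.10 and under 0.01, and 0 with the adjustment recomputed over entries with at least 1 FPKM in either or in both genotypes (smallest q among members 0.716 as deposited and 1.00 in each of these). It was 2, Aplnr and Adm, at an unadjusted p under 0.05. Of 50 recomputed member fold changes (pseudocounts of 0.1 and 1 FPKM, both centrings and rescaling of each genotype's column to an equal sum) 49 kept their sign and 49 stayed within 1 SE. Pseudocounts cannot change a sign. Centring on the entry median subtracted -0.02 and rescaling added -0.03, each smaller in size than every member's fold change. Only the endothelial scale, which subtracted -0.16, could therefore change a sign. Apln moved to 0.19 with 1 FPKM added, and Ramp2 changed sign, to 0.03, on the endothelial scale, which was chosen after seeing the data. The member median ranged from 0.14 to 0.44 on the log2 scale. No member had a second entry to put in its place. No paired analysis was possible because the table holds 1 pooled value per genotype, and leaving out single hearts was not run for the same reason. The unknown spread between hearts and the wide intervals limit each fold change, most of all those of Apln and Ramp3.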
